A study of Homo sapiens with 12 samples.

Results

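The Notch genes described here were the receptors *NOTCH1*, *NOTCH2* and *NOTCH3*, the ligands *JAG1* and *JAG2*, the glycosyltransferase *LFNG*, and the target genes *HES1*, *HES4* and *HEY1*. They were taken by name and not by a threshold on their values, and all 9 were found by Entrez identifier among the 26258 genes of the deposited table. RNA was sequenced from HLE cells, an established human hepatocellular carcinoma line, transfected with siCtrl (a control siRNA), siY/T (directed at YAP and TAZ) or siATF4 (directed at ATF4). All 3 were grown either in DMSO, the vehicle, or in Sorafenib, a kinase inhibitor (Srf, 5 µM by the sample labels, whereas the paper's legend gives a slightly higher dose), so that there were 6 groups with 2 libraries each, 12 in all. The siRNAs reduce rather than delete their targets, and all groups were made from the same line. Values are CPM, counts per 1000000 reads that fell on genes, and 1 read stood for 0.0186 to 0.0241 CPM.

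Notch receptors are single-pass proteins that are cut by ADAM proteases and gamma-secretase when a Jagged or Delta ligand on a neighbouring cell binds them. The released intracellular part enters the nucleus, joins the DNA-binding protein RBPJ and MAML coactivators, and switches on the HES and HEY repressors. In liver, the pathway is known for its part in bile duct formation, and *JAG1* and *NOTCH2* are known there as targets of YAP. LFNG adds a sugar to receptors in the Golgi and so changes which ligands they answer to.

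The promoters of the targets *HES1* and *HES4* and of the members that changed most are shown first, because TEAD (the partner of YAP and TAZ), ATF4 and RBPJ have known DNA motifs. The windows are the 250 bases upstream of RefSeq transcription starts (sequences from the RefSeq table of GRCh38.p14, placed by exact match on GRCh37). Both strands were searched for GGAATG, the core bound by TEAD, for GTGGGAA, the core bound by RBPJ, and for TGATGNAA, the element bound by ATF4. None of the matches found overlapped another. Of 35116 promoter windows in that table, 11.9% held the TEAD letters, 5.43% the RBPJ letters and 3.14% the ATF4 letters. *HES1* and *HES4* each held GTGGGAA once, beginning 85 and 77 bases before the RefSeq start. For *HES4*, GENCODE places the start at 935552 instead, within the 30 bases shown here. The 30 bases around GTGGGAA, at chr3:193853840-193853869 on the plus strand and chr1:935537-935566 on the minus strand, read 5′ to 3′ as below, with the RBPJ core in capitals.
HES1: ctgaaagttactGTGGGAAagaaagtttgg
HES4: gctggggcgagtGTGGGAAagaatgcggag
*LFNG* has a pair of listed starts. The upstream window, chr7:2551913-2552162, held none of the 3 motifs. The window of the downstream start, chr7:2557247-2557496 on the plus strand, which lies in an intron of the longer transcript, held the ATF4 letters once, 169 bases before the start, shown here in capitals.
LFNG: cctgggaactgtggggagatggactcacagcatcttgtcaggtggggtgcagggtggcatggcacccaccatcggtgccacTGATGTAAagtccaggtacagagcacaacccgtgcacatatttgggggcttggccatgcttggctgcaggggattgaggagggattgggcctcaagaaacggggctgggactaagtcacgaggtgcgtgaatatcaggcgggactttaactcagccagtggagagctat
The window of *JAG1*, chr20:10654648-10654897 on the minus strand, is shown because this gene changed most with siY/T in DMSO. It held none of the 3 motifs, so no letter is in capitals.
JAG1: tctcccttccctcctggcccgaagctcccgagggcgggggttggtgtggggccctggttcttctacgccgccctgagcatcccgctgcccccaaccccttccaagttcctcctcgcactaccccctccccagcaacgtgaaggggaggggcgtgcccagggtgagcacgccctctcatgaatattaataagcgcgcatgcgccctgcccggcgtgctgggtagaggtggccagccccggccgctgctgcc
No match was found in the windows of *JAG2*, *NOTCH1* and *NOTCH3* either. The window of *HEY1* was not searched. The *NOTCH2* window was searched and held none of the 3 motifs. Its sequence could not be placed by exact match on GRCh37 and is not shown. A match is a description of letters, and no binding was measured here.

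The members differed widely in abundance. Per kilobase of the canonical transcript, siCtrl DMSO cells held 36.1 ± 3.96 CPM per kb of *LFNG* (SD, n = 2 libraries) and 33.4 ± 0.406 CPM per kb of *NOTCH2*, and the libraries of these genes overlapped. *NOTCH1* with 2.55 ± 0.0814 and *HES4* with 2.50 ± 0.113 CPM per kb followed, again with overlapping libraries. Then came *JAG1* with 1.31 ± 0.0251, *HES1* with 1.02 ± 0.0339, *JAG2* with 0.363 ± 0.052, *HEY1* with 0.199 ± 0.00479 and *NOTCH3* with 0.0635 ± 0.00779 CPM per kb, each separated from the next. The order was not fixed: in siATF4 DMSO cells *LFNG* held 7.73 ± 0.21 CPM per kb, below the 35.0 ± 0.557 of *NOTCH2*, and in siY/T DMSO cells *JAG1* held 4.04 ± 0.107, above *NOTCH1* with 2.52 ± 0.0303. *HEY1* did not reach 1 CPM in any library, rested on 2 to 32 reads per library, and was too low to judge. *NOTCH3* reached 1 CPM in 4 libraries, those of siCtrl Srf and siY/T Srf, and rested on 4 to 97 reads. It could therefore be tested because it was high with Srf, and its fold changes are read with that limit. *HES1* likewise reached 1 CPM in 7 libraries, all but 1 of them in DMSO, where it was high, and *JAG2* in 9, of which 1 was a siATF4 library. *JAG2* (27 to 162 reads), *HES1* (23 to 182) and *HES4* (55 to 210) were low but counted in every library. The microRNA genes inside *NOTCH1*, *NOTCH3*, *JAG1*, *JAG2* and *LFNG* were listed at 0.217 CPM or less. GENCODE also places lncRNA genes over *NOTCH1*, *NOTCH2* and *JAG1* on the opposite strand and over *JAG2* on the same strand, and since the strand setting of the counting is not stated, their reads are not known to be separated.

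**Figure D1:**
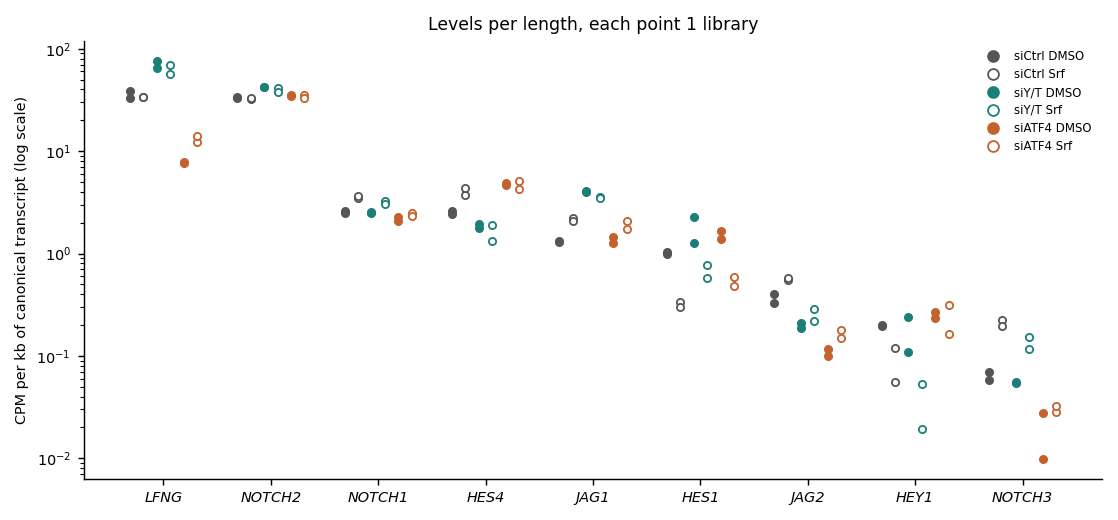
Levels of the 9 Notch genes in CPM per kb of the canonical transcript (vertical axis, log scale), with 1 point per library, coloured by siRNA and open for Srf. *LFNG* and *NOTCH2* stood above all other members in every library, and *NOTCH3* was lowest in 4 of the 6 groups and *HEY1* in the other two.

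The siRNA targets were measured first. With siY/T, the log2 fold change of *YAP1* was -2.41 in DMSO and -2.47 in Srf, and that of *WWTR1*, which encodes TAZ, was -1.50 and -1.52. With siATF4, that of *ATF4* was -1.33 in DMSO and -2.47 in Srf, so the libraries matched their labels. The siRNAs were not separate in their reach: *ATF4* also fell by 0.63 with siY/T in Srf, *WWTR1* fell by 0.70 with siATF4 in DMSO, and *ATF4* rose by 0.97 with Srf in siCtrl cells. The libraries held 41408348 to 53619732 reads on genes, and the libraries of each group differed by more than counting noise, most in siY/T DMSO (chi-square per gene 20.7, against 2.98 to 8.3 in the other groups). Of 8 hepatocyte markers, 6 (*ALB*, *APOA1*, *APOB*, *TTR*, *HNF4A* and *CYP3A4*) stayed under 1 CPM in all libraries, as did *AFP* and *GPC3*, whereas the keratins *KRT8* and *KRT18* summed to 975 to 3332 CPM. The other two hepatocyte markers were present: *FGB* read 64.4 to 431 CPM and *SERPINA1* up to 2.32 CPM. *FGB* fell by 2.49 in DMSO and 1.42 in Srf with siATF4, and its part in the results below was not tested. The 6 biliary markers summed to 114 to 562 CPM, the endothelial markers to at most 0.262 CPM, and of the 2 immune markers *PTPRC* stayed under 1 CPM while *CD68* read 19.8 to 75.0 CPM and rose by 1.82 in DMSO and 1.40 in Srf with siATF4.

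All 12 libraries entered a single limma model of log2(CPM + 0.5), which covered the 13515 genes that reached 1 CPM in 2 or more libraries. Calls needed a two-sided p under 0.05 and a log2 fold change beyond 0.58 in either direction, the thresholds of the paper's methods. Adjusted p-values are Benjamini-Hochberg values over all genes tested. The added 0.5 makes fold changes of low genes smaller than their CPM ratios. Because there were 2 libraries per group and nothing in the labels describes separate cultures, p-values measure the spread between these libraries. Reads of fewer expressing cells and of less RNA per cell cannot be told apart.

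**Figure D2:**
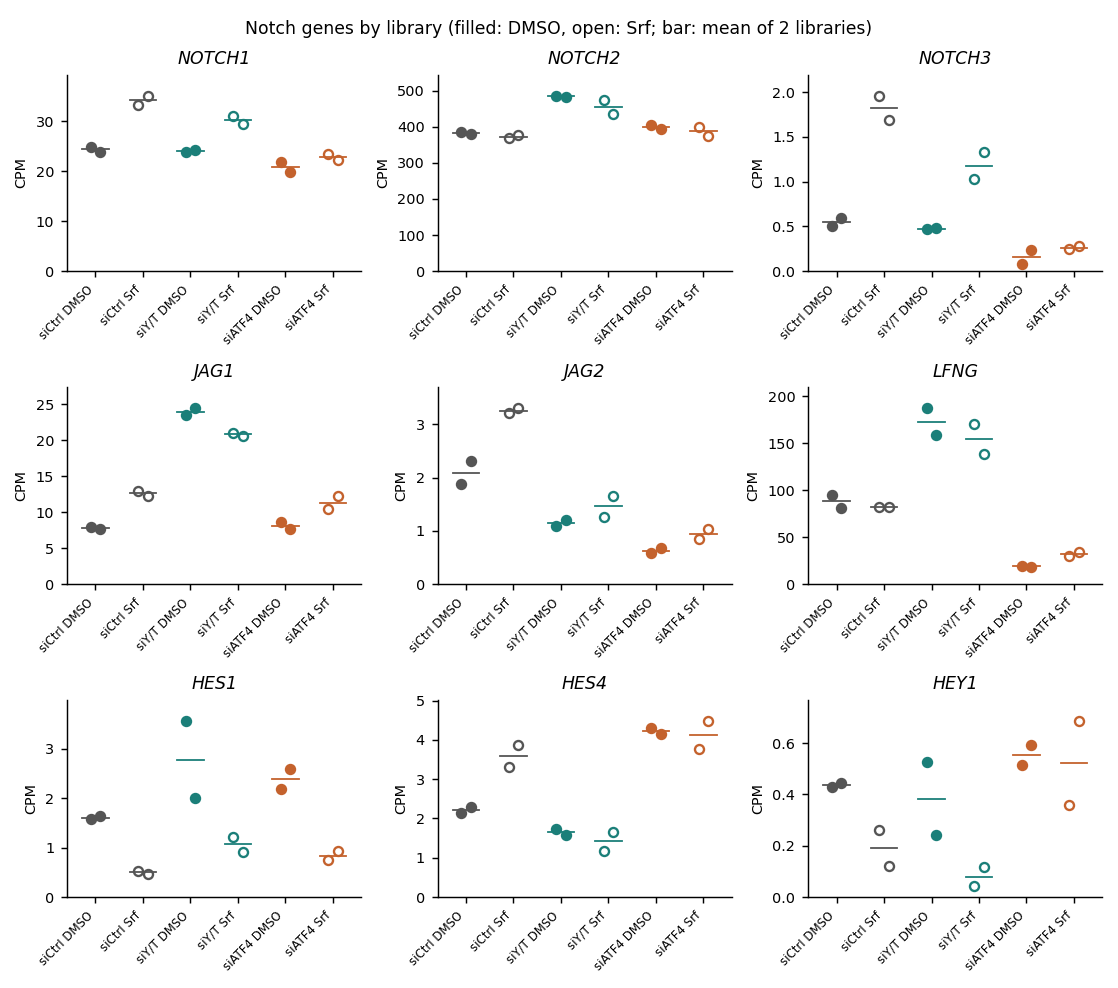
CPM of each Notch gene (vertical axes, from 0) in the 6 groups, with 1 point per library (filled for DMSO, open for Srf) and a bar at the mean of the 2 libraries. *LFNG* lay at 18.5 to 33.9 CPM in the siATF4 libraries and at 139 to 187 CPM in the siY/T libraries, and *HES1* was lower in Srf than in DMSO with each siRNA.

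*NOTCH1* (Entrez 4851; chromosome 9 of GRCh37, 139388885 to 139440500, minus strand, 34 exons) encodes a broadly used Notch receptor. It measured 24.9 and 23.8 CPM in siCtrl DMSO, 33.2 and 35.1 in siCtrl Srf, 23.9 and 24.3 in siY/T DMSO and 31.0 and 29.4 in siY/T Srf cells. In siATF4 cells it measured 21.8 and 19.8 CPM in DMSO and 23.5 and 22.2 in Srf. The siCtrl Srf libraries were the highest, the siY/T Srf libraries came next, and the siATF4 libraries did not reach either. With Srf the log2 fold change of *NOTCH1* was 0.48 in siCtrl cells (SE 0.064, adjusted p = 2.61e-05), 0.32 in siY/T cells and 0.14 in siATF4 cells, all under the fold threshold. With siATF4 in Srf it was -0.57 (adjusted p = 3.06e-06), just short of the threshold, and it passed at -0.61 without siCtrl Srf replicate 1 or without siATF4 Srf replicate 1. The effect of siATF4 on *NOTCH1* differed between Srf and DMSO by -0.34 (SE 0.090, adjusted p = 0.00905), which became -0.28 (adjusted p = 0.0511) without siATF4 DMSO replicate 1.

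*NOTCH2* (Entrez 4853; chromosome 1, 120454176 to 120643366, minus strand, 34 exons), the receptor used in bile duct formation, was by CPM the most abundant member. Its libraries read 385 and 379 CPM in siCtrl DMSO, 368 and 377 in siCtrl Srf, 486 and 483 in siY/T DMSO and 474 and 434 in siY/T Srf. With siATF4 they read 404 and 395 CPM in DMSO and 400 and 374 in Srf. All siY/T libraries were above all others. The log2 fold change with siY/T was 0.34 in DMSO (SE 0.047, adjusted p = 4e-05) and 0.28 in Srf (SE 0.047, adjusted p = 0.000306), differences beyond the spread between libraries but under the fold threshold. With siATF4 it was 0.07 in DMSO and 0.06 in Srf, and with Srf it was between -0.10 and -0.04 in the 3 siRNA conditions. *NOTCH2NLA*, a partial copy of *NOTCH2* that is nearly identical over the shared exons, was listed separately, with log2 fold changes of 0.52 and 0.43 with siY/T and of -0.72 and -1.07 with siATF4 in DMSO and Srf. Since only reads with a single place in the genome were kept, reads from the shared exons may be missing from both genes, and the level of *NOTCH2* is uncertain to that extent.

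*NOTCH3* (Entrez 4854; chromosome 19, 15269849 to 15311806, minus strand, 33 exons), a receptor best known from vascular smooth muscle, measured 0.504 and 0.599 CPM in siCtrl DMSO and 1.96 and 1.69 in siCtrl Srf. In siY/T cells it measured 0.468 and 0.483 CPM in DMSO and 1.03 and 1.33 in Srf, and in siATF4 cells 0.0857 and 0.238 in DMSO and 0.246 and 0.278 in Srf. Every Srf library of siCtrl and siY/T cells was above every DMSO library, and the siATF4 libraries were the lowest of all. *NOTCH3* rose with Srf in siCtrl cells (log2 fold change 1.14, SE 0.148, adjusted p = 1.98e-05) and in siY/T cells (0.78, adjusted p = 0.000733). In siATF4 cells the value was 0.21 (adjusted p = 0.247). It fell with siATF4, by 1.60 in Srf (SE 0.148, adjusted p = 4.51e-07) and by 0.68 in DMSO (adjusted p = 0.00122), where the group held 16 reads in all and the call was lost without siATF4 DMSO replicate 1 (-0.51). The effect of siATF4 on *NOTCH3* differed between Srf and DMSO by -0.93 (adjusted p = 0.00351), a call that edgeR (adjusted p = 0.13) and DESeq2 (adjusted p = 0.227) on whole reads did not make.

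*JAG1* (Entrez 182; chromosome 20, 10618332 to 10654647, minus strand, 26 exons) encodes Jagged1, a ligand of the Notch receptors. It measured 7.89 and 7.68 CPM in siCtrl DMSO, 13.0 and 12.3 in siCtrl Srf, 23.5 and 24.4 in siY/T DMSO and 21.0 and 20.6 in siY/T Srf cells. In siATF4 cells it measured 8.66 and 7.61 CPM in DMSO and 10.4 and 12.2 in Srf. The siY/T libraries were the highest in both media, with no overlap with any other group, and the siATF4 libraries overlapped siCtrl in DMSO. *JAG1* rose with siY/T 2.96-fold in DMSO (log2 fold change 1.56, SE 0.085, adjusted p = 1.35e-08) and 1.62-fold in Srf (0.69, SE 0.085, adjusted p = 2.18e-05). These calls held in every alternative fit. The difference between the effects was -0.87 (SE 0.120, adjusted p = 0.000501). With Srf, *JAG1* rose in siCtrl cells (0.67, adjusted p = 1.63e-05), a call lost under quantile normalization (0.49), and its log2 fold change was -0.20 in siY/T cells and 0.45 in siATF4 cells. With siATF4 it was 0.06 in DMSO and -0.16 in Srf, within the threshold in both.

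*JAG2* (Entrez 3714; chromosome 14, 105607319 to 105635161, minus strand, 26 exons), the second Jagged ligand, went the other way with siY/T. Its libraries read 1.88 and 2.31 CPM in siCtrl DMSO, 3.21 and 3.30 in siCtrl Srf, 1.09 and 1.21 in siY/T DMSO, and 1.26 and 1.66 in siY/T Srf. With siATF4 they read 0.579 and 0.673 CPM in DMSO and 0.853 and 1.03 in Srf. The siCtrl libraries were above all siY/T and siATF4 libraries, and the siATF4 libraries were the lowest. *JAG2* fell with siATF4 by 1.20 on the log2 scale in DMSO (SE 0.133, adjusted p = 3.37e-06) and by 1.38 in Srf (adjusted p = 6.57e-07). With siY/T it fell by 0.94 in Srf (adjusted p = 7.39e-05) and by 0.65 in DMSO (adjusted p = 0.000942), the latter call being lost without siCtrl DMSO replicate 2 (-0.53). With Srf in siCtrl cells its log2 fold change was 0.54, short of the threshold, which edgeR (0.61) and DESeq2 (0.60) on whole reads passed, as did limma without siCtrl DMSO replicate 2 (0.65).

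*LFNG* (Entrez 3955; chromosome 7, 2552163 to 2568811, plus strand, 8 exons) encodes the Lunatic Fringe glycosyltransferase. It measured 95.0 and 81.3 CPM in siCtrl DMSO, 81.6 and 82.2 in siCtrl Srf, 187 and 159 in siY/T DMSO and 171 and 139 in siY/T Srf cells. In siATF4 cells it measured 19.3 and 18.5 CPM in DMSO and 30.3 and 33.9 in Srf. The siY/T, siCtrl and siATF4 libraries formed separate ranges, with siY/T highest and siATF4 lowest. *LFNG* fell with siATF4 by 2.19 in DMSO, to a level 4.56-fold below siCtrl (SE 0.101, adjusted p = 9.05e-10), and by 1.34 in Srf (SE 0.101, adjusted p = 6.57e-08). It rose with siY/T by 0.97 in DMSO (adjusted p = 3.47e-06) and 0.91 in Srf (adjusted p = 9.74e-06). The effect of siATF4 was smaller in Srf by 0.85 (SE 0.143, adjusted p = 0.000487), and *LFNG* rose with Srf in siATF4 cells (0.75, adjusted p = 5.59e-05), whereas its log2 fold change with Srf was -0.10 in siCtrl and -0.16 in siY/T cells. All of these *LFNG* calls held in every alternative fit.

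*HES1* (Entrez 3280; chromosome 3, 193853937 to 193856521, plus strand, 4 exons), the best-known Notch target and a transcriptional repressor, was among the members whose level turned with the drug. It measured 1.57 and 1.64 CPM in siCtrl DMSO against 0.524 and 0.468 in siCtrl Srf. In siY/T cells it measured 3.55 and 2.00 CPM in DMSO and 1.22 and 0.912 in Srf, and in siATF4 cells 2.19 and 2.59 in DMSO and 0.758 and 0.920 in Srf. All Srf libraries were below all DMSO libraries, whatever the siRNA. *HES1* fell with Srf by 1.08 in siCtrl (SE 0.187, adjusted p = 0.000238), by 1.03 in siY/T (adjusted p = 0.000522) and by 1.11 in siATF4 cells (adjusted p = 0.000326). With siY/T its log2 fold change was 0.60 in DMSO (adjusted p = 0.0143) and 0.65 in Srf (adjusted p = 0.012), both called. The first rested on siY/T DMSO replicate 1, without which it was 0.25, and was also lost without siCtrl DMSO replicate 1 (0.57), with TMM scaling (0.55) and with quantile normalization (0.38). The second was lost without siY/T Srf replicate 1 (0.50). With siATF4 the values were 0.45 in DMSO and 0.43 in Srf, under the threshold. They were called in DMSO under quantile normalization (0.60) and by edgeR (0.59), and in Srf under quantile normalization (0.88), by DESeq2 (0.76) and with a pseudocount of 0.1 (0.65).

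*HES4* (Entrez 57801; chromosome 1, 934342 to 935552, minus strand, 4 exons), a HES family repressor, measured 2.14 and 2.29 CPM in siCtrl DMSO, 3.31 and 3.87 in siCtrl Srf, 1.72 and 1.57 in siY/T DMSO and 1.18 and 1.66 in siY/T Srf cells. In siATF4 cells it measured 4.29 and 4.16 CPM in DMSO and 3.77 and 4.47 in Srf. The siY/T libraries were the lowest in both media, and the siATF4 libraries were above siCtrl in DMSO and overlapped siCtrl in Srf. *HES4* rose with siATF4 in DMSO by 0.80 (SE 0.130, adjusted p = 0.000115), and the value in Srf was 0.18. It fell with siY/T in Srf by 1.10 (SE 0.130, adjusted p = 1.67e-05), and the value in DMSO was -0.34 (adjusted p = 0.0366). The difference between the siY/T effects was -0.76 (adjusted p = 0.0117), which became -0.66 (adjusted p = 0.0592) without siCtrl Srf replicate 2. With Srf in siCtrl cells the log2 fold change was 0.59 (adjusted p = 0.00154), a call at the edge of the threshold that was lost with TMM scaling (0.56), with quantile normalization (0.32), without siCtrl DMSO replicate 1 (0.55) and without siCtrl Srf replicate 2 (0.49).

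*HEY1* (Entrez 23462; chromosome 8, 80674606 to 80680092, minus strand, 5 exons), the HEY repressor of the set, measured 0.429 and 0.444 CPM in siCtrl DMSO, 0.262 and 0.122 in siCtrl Srf, 0.527 and 0.241 in siY/T DMSO and 0.0428 and 0.117 in siY/T Srf cells. In siATF4 cells it measured 0.514 and 0.594 CPM in DMSO and 0.360 and 0.685 in Srf. The siY/T groups held 37 reads in DMSO and 7 in Srf over both libraries, and the libraries of siATF4 Srf cells spread over the range of all siATF4 DMSO libraries. No change in *HEY1* could be judged at this depth.

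**Figure D3:**
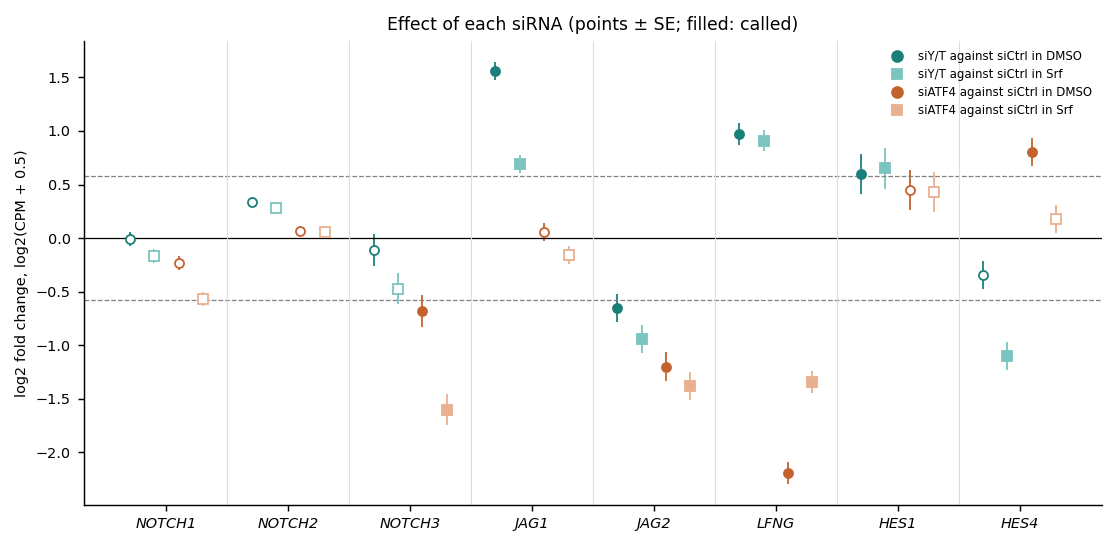
Log2 fold change with each siRNA against siCtrl (vertical axis, log2(CPM + 0.5) scale) for the 8 members tested, in DMSO (circles) and Srf (squares), with bars of 1 SE and filled points for called changes. Dashed lines mark 0.58. *JAG1* stood at 1.56 and 0.69 with siY/T, and *LFNG* at -2.19 and -1.34 with siATF4 but at 0.97 and 0.91 with siY/T.

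Counted over the 8 members tested, siY/T in DMSO gave 3 higher (*JAG1*, *LFNG* and *HES1*) and 1 lower (*JAG2*), where 11.0% of all genes tested were called higher and 3.61% lower. In Srf, siY/T gave the same 3 higher and 2 lower (*JAG2* and *HES4*), beside 6.11% higher and 3.84% lower over all genes. With siATF4 in DMSO 1 was higher (*HES4*) and 3 were lower (*LFNG*, *JAG2* and *NOTCH3*), against 8.57% and 14.1% of all genes. In Srf 0 were higher and the same 3 were lower, against 10.3% and 18.7%. *NOTCH3* passed the filter only through siCtrl and siY/T libraries, and *JAG2* almost only through them. Their falls with siATF4 are therefore tied to the filter. The median log2 fold change of the members with siATF4 in Srf was -0.36 where that of all genes was -0.01, and with siATF4 in DMSO it was -0.08 beside -0.00. With siY/T it was 0.16 beside 0.07 in DMSO and 0.05 beside 0.05 in Srf. The comparisons with siY/T and siATF4 share their siCtrl libraries. The split over all genes moved with the scaling: under quantile normalization siY/T in DMSO had 1044 higher and 789 lower calls in place of 1485 and 488, and siATF4 in Srf had 1903 and 2024 in place of 1386 and 2525.

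**Figure D4:**
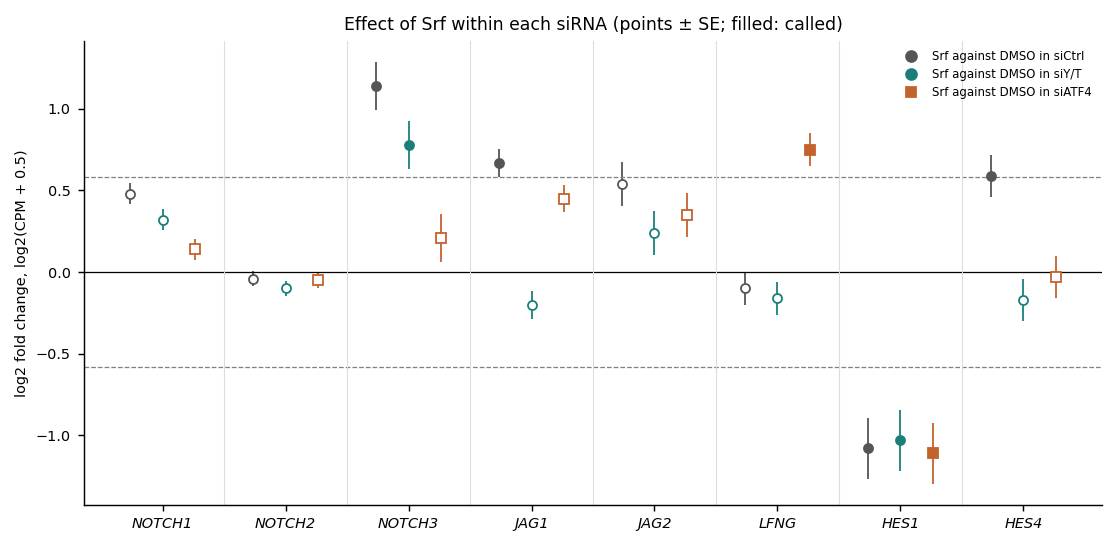
Log2 fold change with Srf against DMSO (vertical axis, log2(CPM + 0.5) scale) within siCtrl, siY/T and siATF4 cells for the 8 members tested, with bars of 1 SE and filled points for called changes. Dashed lines mark 0.58. *HES1* stood between -1.11 and -1.03 with all 3 siRNAs, while *NOTCH3* went from 1.14 in siCtrl to 0.21 in siATF4 cells.

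Srf in siCtrl cells gave 3 members higher (*NOTCH3*, *JAG1* and *HES4*) and 1 lower (*HES1*), with 12.3% of all genes called higher and 5.15% lower. In siY/T cells it gave 1 higher (*NOTCH3*) and 1 lower (*HES1*), beside 5.83% and 4.14%, and in siATF4 cells 1 higher (*LFNG*) and 1 lower (*HES1*), beside 5.68% and 2.95%. *HES1* was the 1 member called with Srf in all 3 siRNA conditions. *NOTCH3* passed the filter only through Srf libraries and *HES1* mostly through DMSO libraries, where each was high. Their calls with Srf are therefore tied to the filter and add no independent weight to these counts. Under quantile normalization the higher and lower calls over all genes were 1125 and 1025 in place of 1665 and 696 in siCtrl, 645 and 729 in place of 788 and 560 in siY/T, and 552 and 457 in place of 768 and 399 in siATF4 cells. The difference of an siRNA's effect between Srf and DMSO, called at an adjusted p under 0.05, was called for 2 of 8 members with siY/T (*JAG1* and *HES4*), where 22.0% of all genes were called, and for 4 with siATF4 (*LFNG*, *NOTCH1*, *NOTCH3* and *HES4*), where 41.1% were. Both shares moved with the fit. With only the groups compared, 2209 genes were called in place of 2978 for siY/T, and 6979 in place of 5553 for siATF4. The 2978 genes behind the first share became 1581 without siCtrl DMSO replicate 2, 1623 without siCtrl Srf replicate 2, 1949 without siY/T Srf replicate 1 and 4575 without siY/T DMSO replicate 2. That of *HES4* with siATF4 was -0.62 (adjusted p = 0.0166) and missed the threshold without any 1 of 4 libraries, at -0.58 without siCtrl DMSO replicate 1, -0.60 without siATF4 DMSO replicate 1, -0.52 without siCtrl Srf replicate 2 and -0.51 without siATF4 Srf replicate 1.

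Over the 12 libraries, which share groups and siCtrl controls, the members were compared by Pearson correlations of log2(CPM + 0.5) with no test. *NOTCH1* and *NOTCH3* ran together (0.94), *JAG2* ran with both (0.79 and 0.86). *NOTCH2* ran with *JAG1* (0.81) and *JAG1* with *LFNG* (0.74), while *LFNG* stood at 0.57 to 0.60 with each of the 3 receptors. *HES4* ran against *LFNG* (-0.88), *NOTCH2* (-0.76) and *JAG1* (-0.67). *HES1* ran against *NOTCH1* (-0.69), *NOTCH3* (-0.63) and *JAG2* (-0.60), but stood at 0.52 with *NOTCH2* and 0.04 with *JAG1*. Among genes averaging 5 CPM or more, those among the most like each member were *ADM2*, *PRX* and *CHAC1* for *NOTCH1* (0.980, 0.979 and 0.974), *EVI5L*, *USP11* and *MAGI2* for *JAG1* (0.980, 0.976 and 0.972), and *ELFN2*, *LRRC32* and *SMAD6* for *LFNG* (0.994, 0.994 and 0.993). For *NOTCH2* they were *SRGAP1* and *CALR* (0.965 and 0.954), for *NOTCH3* *OPTN*, *DBNDD1* and *DIPK1B* (0.979, 0.977 and 0.972), and for *JAG2* *SDC4*, *NTN4* and *MEGF6* (0.955, 0.952 and 0.951). For *HES1* they were *GTF3C5* and *NABP2* (0.966 and 0.957), and for *HES4* *MIR6850*, *MAFK* and *RPL8* (0.965, 0.963 and 0.959), of which *MIR6850* overlaps *RPL8*.

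The rest of the pathway was described from a list of 61 other Notch genes written from general knowledge, of which 60 were in the table and 47 were tested. With siATF4, 2 of the 47 were higher and 8 lower in DMSO, where 8.57% and 14.1% of all genes were, and 1 was higher and 13 were lower in Srf, where 10.3% and 18.7% were. *NEURL1B*, an E3 ligase acting on ligands, fell by 2.15 in DMSO and 1.50 in Srf. *ADAM10*, the protease that makes the first cut in the bound receptor, fell by 1.24 and 1.16, and *HEYL*, a HEY family gene, by 1.06 and 1.85. In the nuclear complex, *RBPJ* itself fell by 0.86 in DMSO and 0.66 in Srf and *MAML2*, a coactivator, by 0.92 and 1.06 (these values were named after being seen). They do not stand for the complex. Of its 20 genes tested, 1 was higher and 3 were lower in DMSO, and 0 were higher and 5 lower in Srf. The median of these 20 was -0.03 in each medium. *MAML3*, another coactivator, read 26.3 CPM against 17.4 in siCtrl cells in DMSO, and 17.2 against 17.2 in Srf. The median of the list with siATF4 in Srf was -0.13 where that of all genes was -0.01.

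With siY/T, 5 of the 47 were higher and 1 lower in DMSO, beside 11.0% and 3.61% of all genes, and 3 were higher and 2 lower in Srf, beside 6.11% and 3.84%. The shares called higher were near those of all genes. *TLE4* and *TLE1*, corepressors that work with HES proteins, rose by 0.80 and 0.70 in DMSO, as did *NEURL1B* by 0.72. In Srf, *MAML3* rose by 0.92, *TLE4* by 0.89 and *NCSTN*, a gamma-secretase subunit, by 0.65. The list's median was 0.15 in DMSO, beside 0.07 for all genes. With Srf in siCtrl cells 4 were higher and 0 lower (all genes 12.3% and 5.15%), among them *MIB2*, an E3 ligase for ligands (0.85), *DTX3* (0.77) and *TLE3* (0.70). With Srf 1 was higher in siY/T cells (*MIB2*, 0.69; all genes 5.83%), and 2 were higher and 2 lower in siATF4 cells (all genes 5.68% and 2.95%), among them *NEURL1B* (0.87), *MIB2* (0.65) and *MAML3* (-0.60). The siRNA effect differed between Srf and DMSO for 4 of the 47 upwards and 6 downwards with siY/T (22.0% of all genes). Among genes averaging 5 CPM or more the largest were *NEURL1B* (-0.61), *RBPJ* (0.50) and *HEYL* (-0.49). With siATF4 it differed for 4 upwards and 12 downwards (41.1% of all genes), the largest among genes averaging 5 CPM or more being *HEYL* (-0.80), *DTX3* (-0.79) and *TLE3* (-0.69). Of the Delta ligands, *DLL1* and *DLL4* stayed under 0.1 CPM, whereas *DLL3* (named after its values were seen) read 1.88 to 5.39 CPM and fell with siY/T by 0.93 in DMSO and 0.71 in Srf, and *HES3* and *HES5* were at 0 in all 12 libraries.

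**Figure D5:**
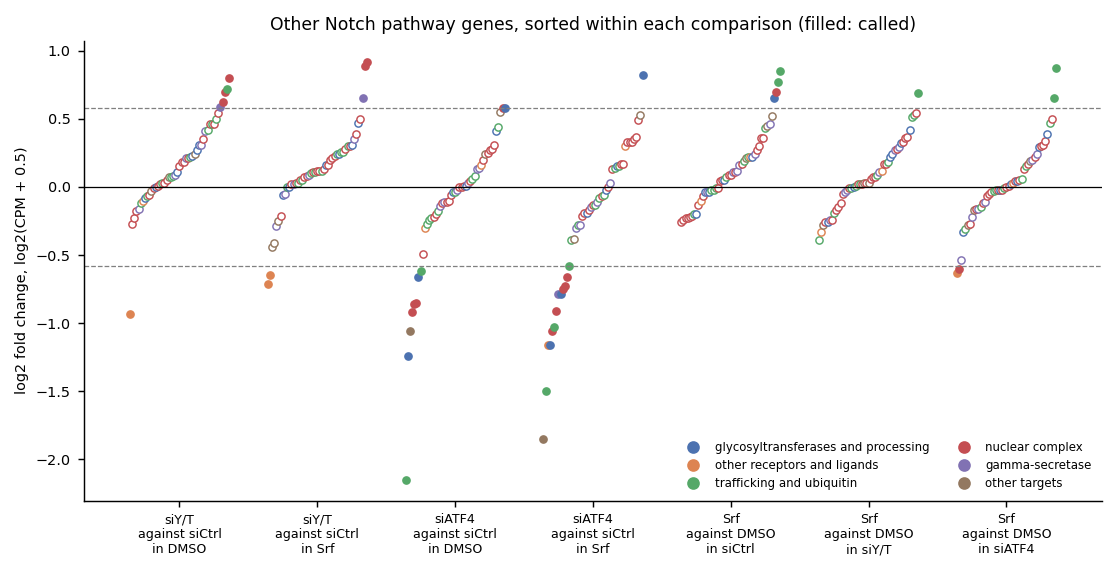
Log2 fold change (vertical axis, log2(CPM + 0.5) scale) of the 47 other Notch pathway genes tested, sorted within each of the 7 comparisons, coloured by role and filled where called. Dashed lines mark 0.58. The siATF4 comparisons held the largest falls, down to -2.15 in DMSO and -1.85 in Srf.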

How the data were processed

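RNA was sequenced from HLE cells in 6 groups of 2 libraries. STAR placed the single-end reads on hg19 (unique hits retained), QuasR summed them over exons of RefSeq transcripts, and the authors deposited the result as CPM. The strand setting is not stated in the sources used here. The paper's methods state biological triplicates, whereas the labels and the table hold 2 libraries per group. All values (100% per library) were whole multiples of 1 read within 0.001 read, so reads were recovered. All columns were mapped to a group.

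Symbols for 26111 of 26258 identifiers were read from the GRCh38.p14 RefSeq table, without its coordinates, and positions, exons and transcript lengths from GENCODE on GRCh37. The 13515 genes that reached 1 CPM in 2 or more libraries were fitted with limma 3.58.1 (R 4.3.3) as log2(CPM + 0.5), with a mean for each group and a variance trend on abundance. Alternatives were pseudocounts of 0.1 and 1, no filter, a filter at 5 CPM, TMM, quantile normalization, a replicate block, fits of the groups compared alone, edgeR 4.0.16 and DESeq2 1.42.0 on recovered reads, calls at adjusted p under 0.05, and leaving out each library. The fits were also run on simulated reads for 1 comparison, siY/T against siCtrl in DMSO, with 200 genes changed. Of these, limma recovered 196 with 2 wrong calls, edgeR 200 with 14 and DESeq2 199 with 8. The simulated spread was the same in every group, unlike that of the data, so the error rate in the data was not measured. Tables and figures used Python 3.11.15, pandas 2.3.3, numpy 2.4.6 and matplotlib 3.10.9.

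The members, the pathway list and the marker lists were chosen with earlier results of these data known. All members are named; of the pathway list, up to 3 called genes per comparison with the largest change and a mean of at least 5 CPM are named, plus *RBPJ*, *MAML2*, *DLL3* and genes at 0, which were named after their values were seen. For each member, the 3 most correlated genes averaging 5 CPM or more are named, except for 2 that are not reported here.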

Additional observations from a re-analysis of the deposited data

Results flagged for a closer look

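For 6 values the effect of an siRNA differed between Srf and DMSO by the test of the difference itself (limma, adjusted p under 0.05), on the log2 scale with 2 libraries per group. With siY/T the difference, Srf minus DMSO, was -0.87 for *JAG1* and -0.76 for *HES4*. With siATF4 it was 0.85 for *LFNG*, -0.34 for *NOTCH1*, -0.93 for *NOTCH3* and -0.62 for *HES4*. Only those of *JAG1* and *LFNG* were called in every alternative fit. That of *NOTCH3* was not called by edgeR (adjusted p = 0.13) or DESeq2 (adjusted p = 0.227) on whole reads. Those of *NOTCH1* and of *HES4* with either siRNA were lost in fits that left out 1 library. Differences of this kind were called for 22.0% of all genes with siY/T (2978 genes, and between 1581 and 4575 when 1 library was left out, the extremes being without siCtrl DMSO replicate 2 and without siY/T DMSO replicate 2) and 41.1% with siATF4. The share with siATF4 moved as well, from 5553 genes to 6979 in a fit of the groups compared alone. The fall of the siRNA target itself was larger in Srf for *ATF4* (-2.47 against -1.33 in DMSO) and close to equal for *YAP1* (-2.47 against -2.41), and the part of this in the differences was not tested.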

How the results depend on the processing

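Of 72 fold changes of members, 30 were called, 19 of them in every alternative that tested them. Of 1604 refits, 28 lost a call and 14 gained one. Where the main fit or the refit made a call, 0 changed sign. Many of these refits kept the fold change by construction, so that only its p-value could move. They left out a library of a group not compared, added the replicate block, changed the filter, fitted the groups compared alone or used adjusted p. The counts of kept calls and signs were therefore partly fixed in advance. Signs of values called in neither were not compared. Some of these did change sign, such as the siY/T difference of *HES1* (0.05, and -0.30 to 0.39 with 1 library left out). *JAG1* with siY/T and *LFNG* in all its calls were among the 19; the filter at 5 CPM could not test those of *NOTCH3*, *JAG2*, *HES1* and *HES4*. The filter at 5 CPM left 4 members to test (*NOTCH1*, *NOTCH2*, *JAG1* and *LFNG*), by construction lowering the counts called to 2 with siY/T in DMSO and 2 in Srf, 1 with siATF4 in DMSO and 1 in Srf, 1 with Srf in siCtrl, 0 in siY/T and 1 in siATF4 cells, and to 1 and 2 for the differences of the siY/T and siATF4 effects. With a pseudocount of 1 the count was 2 with siY/T in DMSO and 1 with Srf in siY/T cells, since low genes shrink; *HES1* with siY/T in DMSO was then 0.51 and in Srf 0.46, *JAG2* with siY/T in DMSO -0.52, *NOTCH3* with siATF4 in DMSO -0.42 and with Srf in siY/T cells 0.56, and *HES4* with Srf in siCtrl cells 0.51. Quantile normalization left 2 members called with Srf in siCtrl cells, with *NOTCH3* at -0.25 with siATF4 in DMSO and the *HES4* siATF4 difference at -0.46; the cause was not tested. Leaving out 1 library gave 1 to 2 members for the siY/T difference and 2 to 4 for the siATF4 difference, lowest without siCtrl Srf replicate 2 and without siATF4 DMSO replicate 1. The differences between replicates 1 and 2 correlated weakly between groups (-0.282 to 0.193, 4 of 15 group pairs over 0.1). Within a medium the correlations were positive, 0.0358 to 0.193 in DMSO and 0.1 to 0.164 in Srf. Between media they were -0.282 to 0.0054. With 1 replicate block over both media the counts called were as without it. They were 4 and 5 with siY/T, 4 and 3 with siATF4, 4, 2 and 2 with Srf, and 2 and 4 for the differences. Such a block cannot take up a shift that changes sign between media. Without a filter, *HEY1* was called lower with Srf in siY/T cells (-0.59, adjusted p = 0.0318) on 7 reads against 37. Depth limits *HEY1*, *NOTCH3*, *JAG2*, *HES1* and *HES4* most.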
